A study of Mus musculus with 32 samples.

Results

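The CpGs described here were the autosomal CpGs of the mouse retina that were methylated on nearly every DNA molecule. They were chosen by their measured values: both strands of a CpG were summed, at least 10 reads were required in each of 16 libraries, and the unweighted mean of percent methylation over the 16 libraries had to be 90 or more. By this rule 255695 of 1045775 shared autosomal CpGs were members, which was 24.5% of them (95% Wilson interval 24.4 to 24.5%, counting error only). With chromosome X, 1071432 CpGs were shared by all libraries. DNA came from 8 retinas of spaceflight mice (M21 to M27 and M29) and from 8 retinas of ground control mice (M31 to M37 and M39). Each mouse gave 1 retina and 1 library, read by RRBS (reduced representation bisulfite sequencing). Bisulfite converts unmodified cytosines, and cytosines that resist it are called methylated here. RRBS reads fragments cut by the enzyme MspI, which favours DNA rich in CpGs but also covers sparse CpGs. All mice were female C57 BL/6J, 21 weeks old. Spaceflight mice lived on the space station for 37 days, in animal enclosure modules, and were killed and frozen in orbit, while ground control mice lived in like housing. The left eye was used for 3 spaceflight mice (M21, M22 and M29) and for 3 ground control mice (M31, M32 and M39), and the right eye for the other 5 of each group. RNA of 16 retinas of the same study, 8 spaceflight, 7 ground control and 1 (M21) whose labels conflict, was used to read expression in FPKM, which scales fragment counts by transcript length and by all mapped fragments of a library.

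In mammals a methyl group on cytosine is placed at CpG dinucleotides by DNA methyltransferases and is copied at cell division. Most CpGs of repeats, gene bodies and intergenic DNA are methylated, whereas CpG islands at gene starts are mostly not. A known exception is a set of germline genes, active in oocytes or sperm precursors, whose CpG-rich promoters are methylated and silent in the body's other cells. The retina is a mixed tissue of rods, cones, bipolar, amacrine and ganglion cells and Müller glia, and in such bulk DNA a level just under full methylation in all cells and an unmethylated minority of cells cannot be told apart.

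The tissue label was compared with marker genes in the RNA. Gnat1, the rod transducin alpha subunit, was at a mean of 9578.3 FPKM and was at 5748.8 or more in every library. Markers of bipolar cells (Trpm1, 71.7 to 150.1 FPKM), amacrine cells (Gad1, 28.8 to 78.3 FPKM), ganglion cells (Rbpms, 11.5 to 26.9 FPKM) and Müller glia (Rlbp1, 131.4 to 415.9 FPKM) were present in all libraries too. Neighbouring eye tissue was also present in varying amounts: Rpe65 of the pigment epithelium was at 52.4 to 571.6 FPKM, and Cryaa of the lens at 0.107 to 15010.9 FPKM. Their part in the methylation values was not tested.

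The sequences of some members are shown first, because they recur below. The promoters of 3 germline genes come from RefSeq (GRCm38.p6), run from 250 bases before to 50 bases after the start on the gene's strand, and belong to the germline genes with the most members among those where every shared CpG near the start was a member. Capitals mark the CpGs that were members. Other CG letters in these windows did not reach 10 reads in every library.
Asz1, chr6:18109012-18109311, minus strand: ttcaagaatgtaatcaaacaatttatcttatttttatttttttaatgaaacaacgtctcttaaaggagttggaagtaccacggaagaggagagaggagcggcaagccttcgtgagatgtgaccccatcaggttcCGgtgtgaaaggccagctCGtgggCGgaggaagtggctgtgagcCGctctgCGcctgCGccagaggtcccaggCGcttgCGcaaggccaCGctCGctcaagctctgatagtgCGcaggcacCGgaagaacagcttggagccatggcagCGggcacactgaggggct
Sycp1, chr3:102936051-102936350, minus strand: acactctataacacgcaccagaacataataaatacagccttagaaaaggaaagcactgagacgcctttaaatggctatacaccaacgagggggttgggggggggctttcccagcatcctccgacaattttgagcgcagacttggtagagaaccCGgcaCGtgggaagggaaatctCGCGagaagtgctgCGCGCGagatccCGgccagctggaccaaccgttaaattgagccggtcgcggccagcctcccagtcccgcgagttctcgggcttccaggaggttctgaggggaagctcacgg
Rpl10l, chr12:66284352-66284651, minus strand: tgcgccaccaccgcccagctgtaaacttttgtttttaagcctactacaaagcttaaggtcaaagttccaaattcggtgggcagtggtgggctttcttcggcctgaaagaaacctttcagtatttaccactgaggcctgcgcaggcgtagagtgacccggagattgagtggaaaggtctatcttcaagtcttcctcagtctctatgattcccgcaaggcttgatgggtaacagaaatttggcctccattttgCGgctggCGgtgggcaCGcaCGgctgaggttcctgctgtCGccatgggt
In the Asz1 window 13 of 17 CG pairs were members, with a mean of 97.2%. The Sycp1 window held 8 members among 21 CG pairs and the Rpl10l window 5 among 13, with means of 97.2% and 97.8%.

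Windows of 61 bases around 5 further members follow, read from the plus strand of GRCm38.p6 with the member in capitals. The first pair had the smallest unadjusted p among members that differed by 10 points or more between the groups and lay outside non-coding exons, the Mlph member separated the groups with all ground control reads methylated, the Ikzf2 member had the lowest value of any single-library loss, and the last was the member with the most reads.
Zfp69, chr4:120931317-120931377: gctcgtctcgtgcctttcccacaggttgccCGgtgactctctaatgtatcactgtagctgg
Bpnt1, chr1:185354663-185354723: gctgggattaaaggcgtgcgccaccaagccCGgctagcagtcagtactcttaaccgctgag
Mlph, chr1:90926973-90927033: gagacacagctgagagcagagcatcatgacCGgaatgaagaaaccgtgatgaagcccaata
Ikzf2, chr1:69567365-69567425: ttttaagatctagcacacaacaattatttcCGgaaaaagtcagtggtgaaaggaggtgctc
Most-read member, chr2:98666473-98666533: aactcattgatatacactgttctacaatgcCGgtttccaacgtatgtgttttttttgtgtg

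Of the shared autosomal CpGs 512986 had a mean under 2%, and the members were the other end of the scale. Their means over 16 retinas had a median of 95.6%. The fullest bin was 96 to under 98%, with 93786 members (36.7%), followed by 94 to under 96% with 67537 (26.4%). Between 98 and 99% lay 18113 members (7.08%), and 1019 (0.399%) reached 99% or more. No member was at 100% in all libraries, so that 0 of 255695 had a mean of 100%. Just below the threshold, 47902 CpGs had means of 85 to under 90%, and 31053 members had means of 90 to under 92%.

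The threshold cut through a continuous range. The 5 members just inside it had means of 90.000184 to 90.000547% and lay in introns of Nomo1, Gm41585, Sh3gl3 and Vwa7 and near Foxd4. The 5 CpGs just outside had means of 89.999557 to 89.999750% and lay at Krt87, Gm30388 and Kctd10 and in intergenic DNA nearest Rnf223 and Ccrl2. Single libraries of the inside CpGs ranged from 73.5 to 100%, and those of the outside CpGs from 75 to 100%, so that the 2 sets overlapped throughout.

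**Figure D1:**
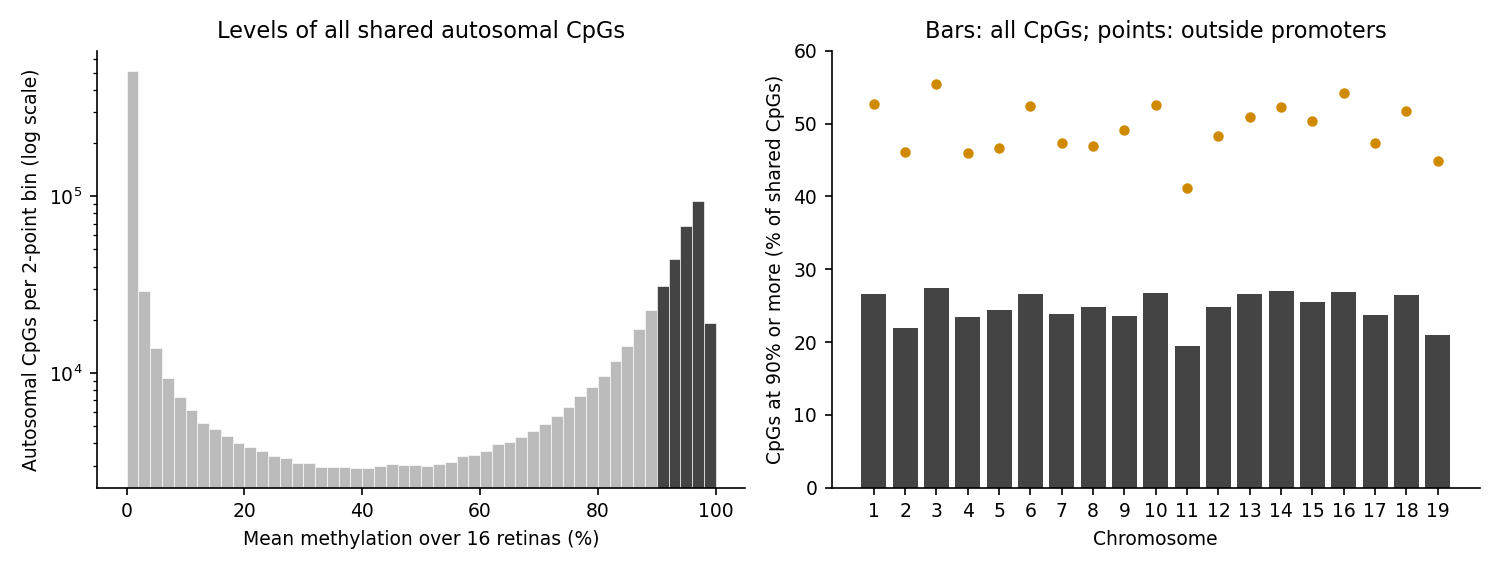
Left, the number of shared autosomal CpGs (log scale) by mean methylation over 16 retinas in bins of 2 points, with the highly methylated CpGs in dark grey. Right, the percent of shared CpGs at 90% or more on each autosome over all CpGs (bars, 19.4 to 27.4%) and outside promoters (points, 41.2 to 55.4%).

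The share of shared CpGs that were members differed between autosomes. Chromosome 11 had the lowest share, 15694 of 80851 CpGs (19.4%), followed by chromosome 19 (20.9%) and chromosome 2 (21.9%). Chromosome 3 had the highest share, 13426 of 48952 (27.4%), followed by chromosome 14 (26.99%) and chromosome 16 (26.9%). The share was lower where more of the shared CpGs lay in promoters (Pearson r = -0.721 over 19 chromosomes, a description, since shares within a chromosome have the same libraries and gene density behind them). Chromosome 11 had the highest promoter share (55.8% of its shared CpGs). Chromosomes 3 and 16 did not follow this relation, since their promoter shares, 52.8% and 52.7%, were above those of most autosomes. Outside promoters the range was 41.2% on chromosome 11 to 55.4% on chromosome 3, so that the lowest and the highest autosome were the same, while others changed place (chromosome 14 was at 52.2%). Chromosome X, which has no members by the rule, had 33.4% of 25657 shared CpGs at 90% or more.

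Members kept away from gene starts. Of the members, 37.6% lay in introns, 37.0% in intergenic DNA, 20.4% in exons and 5.02% in promoters (1000 bp to either side of a start), whereas promoters held 52.4% of all shared autosomal CpGs. The share of CpGs that were members was 2.34% in promoters, 45.2% in exons, 47.7% in introns and 52.2% in intergenic DNA. It rose without a break with distance from the nearest start, from 1.24% within 200 bp through 6.59% at 500 to 1000 bp and 38.4% at 2 to 5 kb to 64.2% at 50 kb or more. With promoters of 500 bp to either side, 7384 members lay in promoters in place of 12830, which was 1.59% of the CpGs there.

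CpG islands were called on the genome sequence (200 bp or longer, GC of 50% or more, observed over expected CpG of 0.6 or more). They held 33091 members, 5.49% of their shared CpGs. Island CpGs near gene starts were rarely members: inside promoters 2010 of 493597 island CpGs were members (0.407%), whereas 38.0% of intergenic island CpGs and 38.0% of island CpGs in soft-masked repeats were. With a stricter island (500 bp, 55% GC, ratio 0.65) the number fell to 4042, or 0.793%. Shores within 2000 bp of an island had 37.6%, shelves 49.5% and open sea 55.3% of their shared CpGs among the members.

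Sparse CpGs were members most often. Where 0 to 1 other CpG lay within 100 bp, 58.9% of shared CpGs were members, and this fell through 41.3% with 6 to 9 and 18.8% with 10 to 14 to 1.495% with 15 to 24 and 0.0642% with 25 or more. The median member had 4 other CpGs within 100 bp and 51.7% GC, against 11 and 61.7% for all shared autosomal CpGs. In repeats 61.7% of shared CpGs were members, against 20.6% outside. CCGG, the site that MspI cuts to make RRBS fragments, held 53.1% of members and 34.9% of all shared autosomal CpGs, and its spread between retinas was slightly larger than elsewhere (median SD 3.33 against 3.09 points). Among flanking bases the lowest share was that of GCGC (11.4%), and CCGG had the highest (37.2%), followed by TCGA (29.6%).

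**Figure D2:**
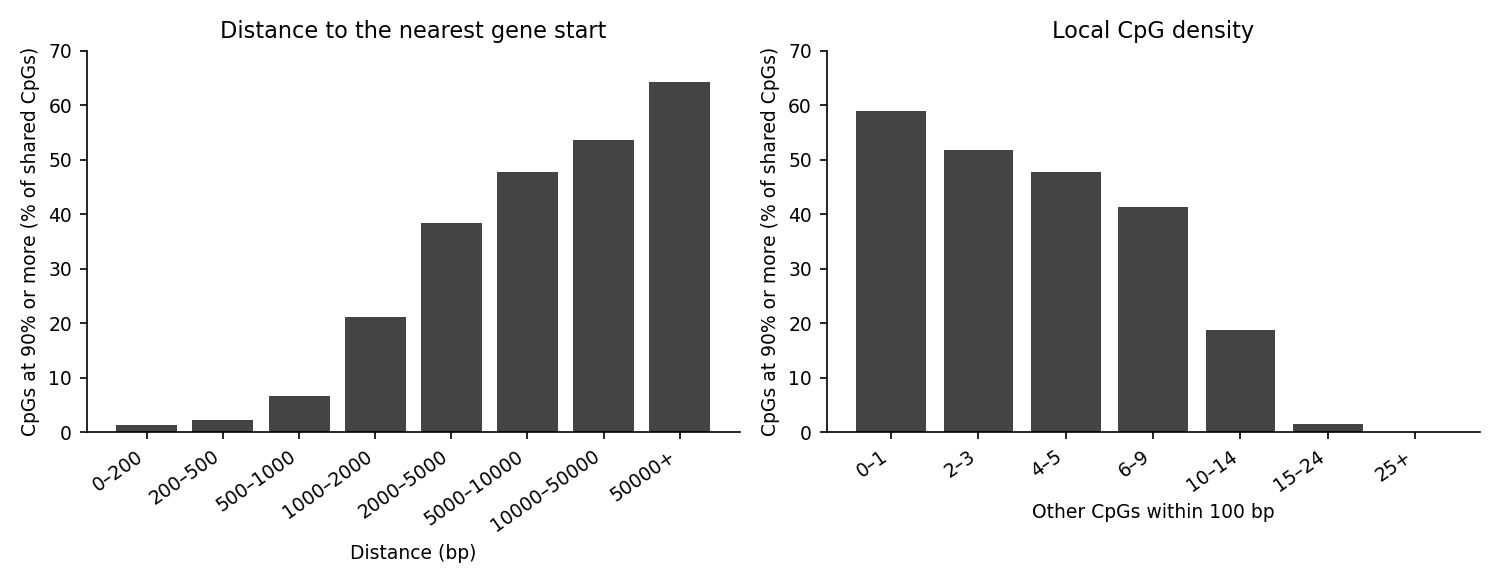
Percent of shared autosomal CpGs with a mean of 90% or more, by distance to the nearest gene start (left) and by the number of other CpGs within 100 bp (right). The share climbs from 1.24% next to a start to 64.2% at 50 kb or more, and drops from 58.9% for isolated CpGs to 0.0642% in the densest sequence.

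Members came in runs. From a member, the next shared CpG within 50 bp was also a member in 83.2% of 136910 pairs and was at 80% or more in 95.8%. After a CpG that was no member, the next was one in 3.46% of pairs. A drop from a member to a CpG under 20% within 50 bp was seen in 46 pairs (0.0336%). Where both strands had 10 reads in every library (38909 members), the forward strand was at 95.2% and the reverse strand at 95.2%, with a median absolute difference of 0.970 points, and 30 members differed by more than 10 points between strands. Of all members, 128250 (50.2%) were read on 1 strand only.

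Most of the spread of members between retinas was that of counting reads. A small spread was favoured by the rule, since members needed a high mean over these same libraries and cannot exceed full methylation. The SD over 16 libraries had a median of 3.22 points (2.43 to 4.21 for the middle quartiles). Read counts alone gave a median of 2.96 points, and the median ratio of the squared SD to the counting expectation was 1.19. Median reads per member were 41 to 71 a library, and 4.85% of the values rested on 10 to 19 reads. In all 16 libraries 100630 members (39.4%) were at 90% or more, and 236380 (92.4%) were at 80% or more. The lowest of a member's 16 values had a median of 88.5%.

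Among the members, 33 had a mean of more than 1000 reads a library, and together they took 11.2 to 23.9% of a library's reads on members. These were singled out after their values were seen. The most-read member, shown above, is intergenic at position 98666503 of chromosome 2, in a stretch known in this genome build for collecting reads of centromeric satellite copies. It held 1367441 to 1785185 reads (median 1540367) in spaceflight libraries and 1608989 to 3967353 (median 1973046) in ground control libraries. Its methylation was 96.7% at the lowest, 96.90% at the median and 96.97% at the highest in spaceflight retinas and 96.86%, 96.95% and 97.11% in ground control retinas. The groups overlapped. Their means differed by -0.0976 points. Among the 5 most-read members the difference ran from -0.18 points to 0.566 points. The latter was in an intron of Chl1, a cell adhesion gene, at 92.99 to 93.91% in spaceflight and 91.5 to 93.29% in ground control retinas. All others lay close together on chromosome 2, from position 98662794 to 98666503, and are not separate loci. The 3 of the 5 that were lower in spaceflight were all among these.

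Averaged over all members, the groups were level. The mean over members was 94.81% (M22) at the lowest, 95.25% at the median and 95.40% (M26) at the highest in spaceflight libraries, and 94.84% (M31), 95.23% and 95.40% (M33) in ground control libraries. The group means were 95.19% ± 0.178 (SD, n = 8) and 95.19% ± 0.175 (SD, n = 8), and spaceflight minus ground control was -0.00190 points, under the spread between libraries. It was -0.0528 without M31 and 0.0521 without M22, 0.101 in left eyes and -0.0637 in right eyes, each again under that spread. No test is given for this mean, since the members were chosen on the same libraries. Where all reads were pooled within each library the difference was -0.0837 points, and without the 33 most-read members it was -0.00841 points.

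The same held in each kind of region. Members in repeats averaged 95.77% ± 0.123 (SD, n = 8) in retinas of spaceflight mice and 95.82% ± 0.0882 (SD, n = 8) in those of ground control mice. Members in islands averaged 95.72% ± 0.119 (SD, n = 8) and 95.76% ± 0.0918 (SD, n = 8), and members in promoters 94.91% ± 0.234 (SD, n = 8) and 94.88% ± 0.230 (SD, n = 8). By chromosome, spaceflight minus ground control ran from -0.0382 points (chromosome 7) to 0.0577 points (chromosome 19), lower on 9 autosomes and higher on 10.

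Libraries M23 and M31 stood apart in their low values. Members under 80% were 1.72% of M31's values and 1.14% of M23's, against 0.179 to 0.634% in the other 14 libraries. In M31 the squared deviations from a member's pooled level were 1.74 times those of read counting, against 1.03 to 1.31 times in the other libraries, and at 116834 partly methylated CpGs (20 to 80%) they were 2.95 times against 1.22 to 1.62 times. M23 listed 2307432 and M31 2414945 CpG cytosines, the fewest beside M21 (2431235), whereas the other libraries listed 2497909 or more. The part of these properties in the low values was not tested. Without M23 and M31, the rule gave 285327 members (25.2% of the CpGs then shared), and the difference between group means over the original members was -0.0436 points.

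**Figure D3:**
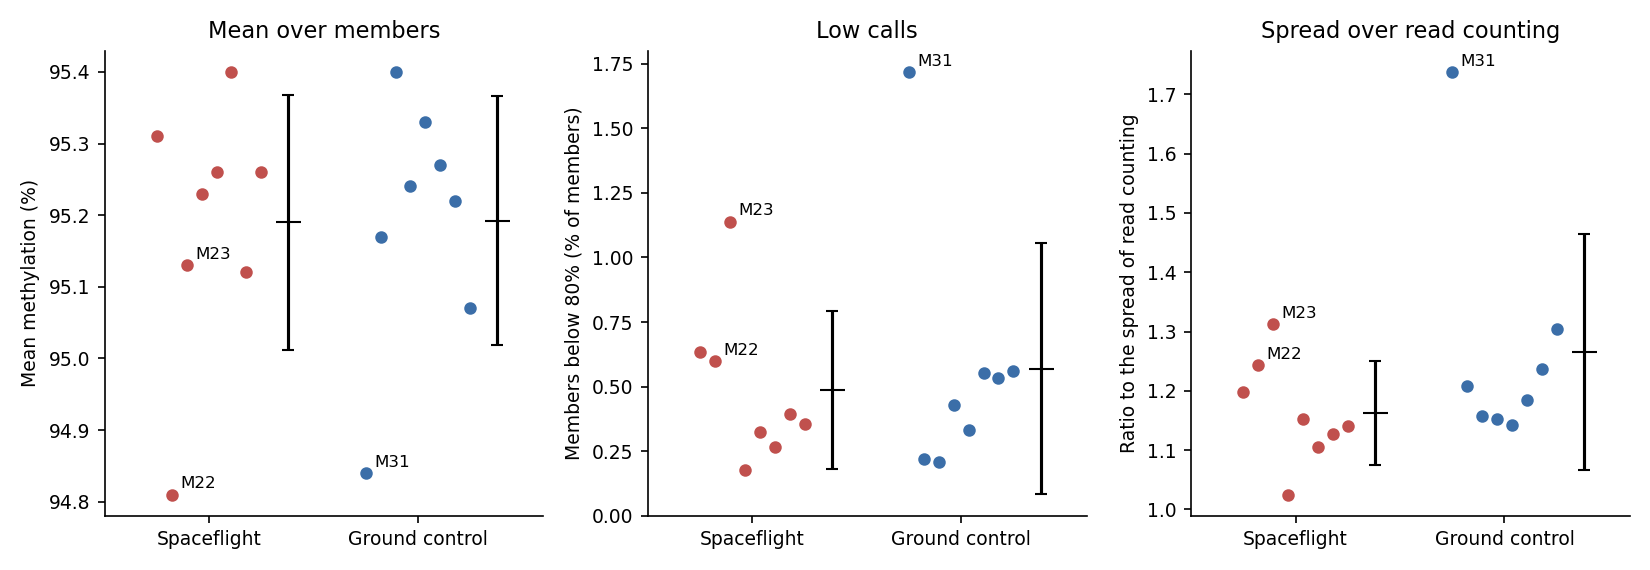
Each point is 1 retina, by group, with the group mean and SD to its right (n = 8). The panels show the mean methylation over members (94.8 to 95.4%), the percent of members under 80%, with M31 at 1.72% and M23 at 1.14%, and the squared spread relative to read counting, with M31 at 1.74.

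Among the members, losses confined to 1 retina were few, rested on few reads and were almost all in these 2 libraries. A loss was a member at 50% or under in 1 library with the other 15 at 80% or more. Of 255695 members 28 met this, 15 in M31, 12 in M23 and 1 in M36, and 0 in the other 13 libraries. They rested on 10 to 26 reads, 27 of the 28 on a single strand, while the other libraries had a median of 31 reads there. There were 16 in introns, 5 in intergenic DNA, 4 in exons and 3 in promoters. No 2 losses of a library lay within 1000 bp of each other. Of 45 members within 100 bp of a loss, 38 were at 80% or more in the same library and 0 were at 50% or under. Over all members only 1.72% of M31's values and 1.14% of M23's were under 80%. The 45 were taken over all losses, also that of M36. They can share reads with a loss, which was chosen for its low value, and depth was not matched. Whether values under 80% are more frequent beside a loss can therefore not be read from these shares. The count of 28 is itself limited by the choice of members. A low library lowers the mean that a member must reach, so that the other 15 had to be high enough to make up for it. CpGs that such a loss took below the threshold were not counted. The share of such losses among all shared CpGs was not computed. How rare they are can therefore not be read from this count.

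The 5 losses with 20 or more reads were all in M31. A member in an intron of Ets2, a transcription factor gene, at chr16:95708789-95708790 had 13 of 26 reads methylated in M31 (50%), and 84.1 to 100% in the others. A member in an intron of Scfd2, at chr5:74307458-74307459, had 12 of 25 (48%), and 88.5 to 100% in the others. A member in an intron of Itga8, which codes for an integrin subunit, at chr2:12189128-12189129 had 10 of 22 (45.5%), and 88.5 to 100% in the others. The remaining 2 lay in introns of Gm36926 (13 of 26 reads) and Ttc17 (11 of 22 reads). Of the losses with 15 to 18 reads, those named here were also in M31 (a pair of others, 1 in M31 and 1 in M36, tied at 15 reads): an intergenic member nearest Gm46879 (50%), a coding member of Cep131, a centrosomal protein gene (46.7%), an intronic member of Pola2, a subunit of DNA polymerase alpha (33.3%), and an intergenic member nearest Gm26354 (46.7%).

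The lowest value of a loss was 30%, at the Ikzf2 member shown above, in an intron of a zinc finger transcription factor gene, where M23 had 3 of 10 reads methylated and the other libraries were at 91.4 to 100%. At 30% or under it was the only one, and at 70% or under there were 1621 (581 in M31, 424 in M23, 110 in M21 and 6 to 83 in each of the others). These counts are limited by the choice of members in the same way. Where 20 reads were required in every library, 1 of the 28 was left. Without M31 there were 13 losses, and without M23 16.

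Spaceflight was then compared with ground control at each CpG. A logistic model of the methylated share of reads by group, whose overdispersion factor was kept at 1 or above, was fitted to all 1071432 shared CpGs and its p-values adjusted over all of them by Benjamini-Hochberg. No member combined 10 points or more with an adjusted p that reached 0.05 (0 of 255695, against 0% of all CpGs tested), and the lowest adjusted p of any CpG was 0.865. At an unadjusted p of 0.05 or under, 9858 members (3.86%) passed, against 4.09% of all CpGs tested. With a difference of 10 points or more as well, 12 members passed, 6 lower and 6 higher in spaceflight, which was 0.00469% of members against 0.188% of all (0.107% lower and 0.081% higher). Without 1 library this count was 21 (M21), 19 (M24), 21 (M26), 19 (M27), 24 (M32) or 20 (M36), and with 20 reads in every library it was 0. Members differed by a median of 1.07 points, 95% of them by less than 3.63 points, and 13 by 10 points or more (0.00508%, against 0.268% of all). The shares with 10 points or more are limited by the choice of members. Members had to have a high mean over these same libraries and cannot exceed full methylation, which leaves little room for such differences. Their lower shares than among all CpGs therefore do not show whether members differed less between the groups.

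At the unadjusted p, 5280 members were lower in spaceflight (2.07%, against 2.14% of all) and 4578 higher (1.79%, against 1.95%). This balance turned without 1 library: without M22, the library with the lowest mean over members, it was 4684 lower and 4841 higher. The excess of lower over higher was 702 with all libraries, 415 without M27 and 301 without M33. Without M23 and M31 it was 4839 lower and 4117 higher. The groups did not overlap at 17 members lower in spaceflight (0.00665%, against 0.00485% of all) and at 14 higher (0.00548%, against 0.00317% of all), with a median absolute difference of 4.26 points. limma on arcsine square-root percentages put 14364 members at an unadjusted p of 0.05 or under (5.62%, against 4.04% of all), and called 1 member after adjustment, one that differed by under 10 points. Without the overdispersion factor 76 of 255695 members passed the adjusted p. For this count and for the 1 call of limma the share over all CpGs was not computed. Neither is therefore read as particular to the members. Without the factor and with 10 points or more as well, 3 of 255695 members passed, against 135 of all 1071432 CpGs tested. This comparison is limited by the choice of members in the same way. The fit without the factor takes reads as independent and holds no spread between mice.

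That 1 member, named after its value was seen, lay in an intron of Mlph, which codes for a protein of melanosome transport, and is shown above. All 8 ground control retinas were at 100% on 13 to 24 reads, and the spaceflight retinas were at 90% at the lowest, 92.1% at the median and 96.2% at the highest on 20 to 42 reads. The groups did not overlap. The pooled difference was -7.24 points. limma gave an adjusted p of 2.85e-05, against 0.865 from the logistic fit, in a group with no spread at all.

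The 8 members with the smallest unadjusted p among those that differed by 10 points or more all had adjusted p-values of 0.865, and 0 of the 8 separated the groups. In spaceflight 5 were lower and 3 higher. The member in a coding exon of Zfp69, a zinc finger gene, was at 77.8% at the lowest, 88.9% at the median and 95% at the highest in spaceflight retinas and at 91.4%, 100% and 100% in ground control retinas, a pooled difference of -11.6 points (unadjusted p = 0.000983). Its reads were 11 to 27 in spaceflight and 22 to 44 in ground control libraries, and the groups overlapped.

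The member in a non-coding exon of Pcnx was at 94.7%, 100% and 100% (lowest, median, highest) in spaceflight and at 68.4% (M31), 89.1% and 95.2% in ground control retinas, a difference of 10.9 points (unadjusted p = 0.00163). The member in an exon of the non-coding gene Gm31920 was at 92.9%, 97.9% and 100% in spaceflight and at 75.9% (M31), 86.2% and 93.8% in ground control retinas, a difference of 11.4 points (unadjusted p = 0.00325). In both, and at the intergenic member nearest Eif4a3l1 (68.8% in M31, a difference of 10.7 points), M31 was the lowest of the 16 libraries.

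The member in an intron of Bpnt1, a nucleotidase gene, lies in a repeat and was at 71.1% (M23), 87.1% and 96.4% in spaceflight and at 87.5%, 96.6% and 100% in ground control retinas, a difference of -11.0 points (unadjusted p = 0.00593). The member 486 bp into Ovol1, which codes for an epithelial transcription factor, was at 57.1% (M23), 87.5% and 96.7% in spaceflight and at 90.3%, 98.04% and 100% in ground control retinas, a difference of -10.1 points. M23 was the lowest library at both. In coding exons of Prrt3 and of Col27a1, a fibrillar collagen gene, the differences were -10.8 and -10.5 points, with the lowest values in M25 (68.8%) and M26 (60.9%).

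The largest difference of any member was 13.5 points, in an intron of Smim14 (named after its value was seen), where 2 ground control retinas were low, M31 at 41.7% and another at 54.5%, and no spaceflight retina was under 90.9% (unadjusted p = 0.0256). Leaving out any 1 library turned the direction of none of the 8 members above. Because the 8 were chosen for large differences in these same libraries, this lends them no support.

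**Figure D4:**
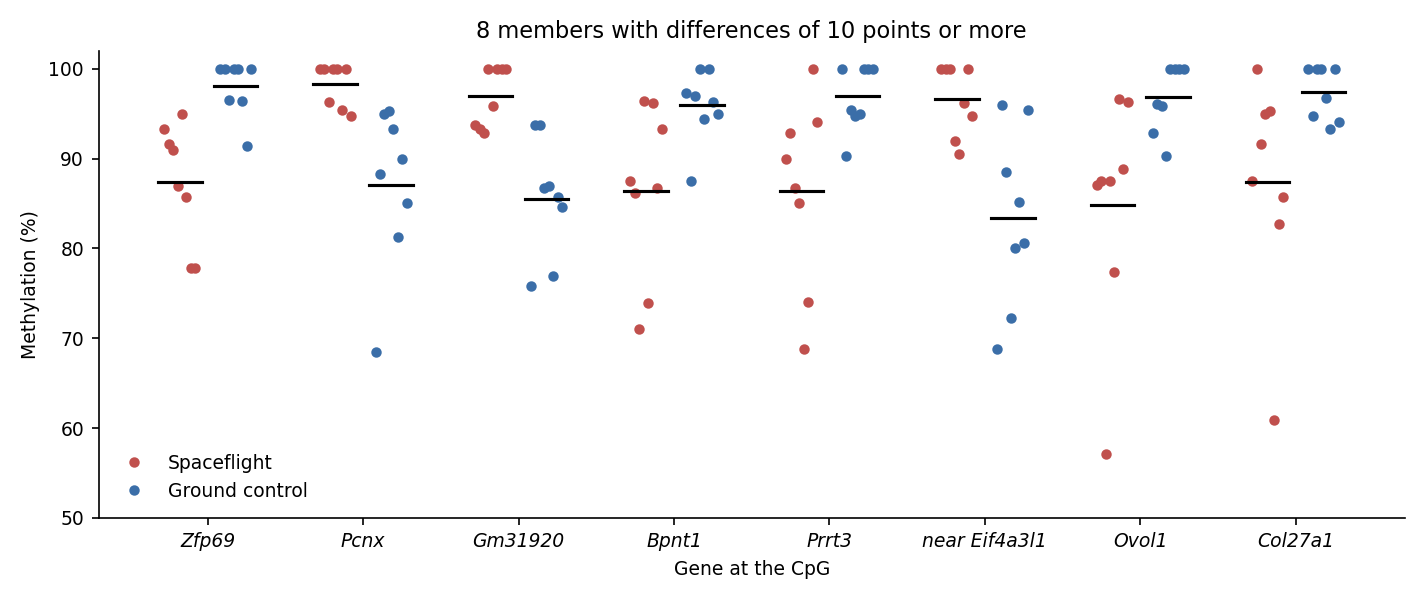
Percent methylation of the 8 named members in each retina (points, 8 a group) with group means (bars). The groups overlap at all 8, and the lowest library is at 57.1% at Ovol1, 60.9% at Col27a1 and 68.4 to 68.8% at Pcnx, Prrt3 and the member near Eif4a3l1.

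Genes whose start was methylated throughout mostly had little RNA. Of 18126 autosomal genes with a shared CpG within 500 bp of a start, 2470 (13.6%) had a member there, and 797 (4.40%) had 3 or more members and no shared CpG under 50%, here called methylated starts. These were 351 lncRNA genes (10.1% of those with shared CpGs), 325 protein-coding genes (2.35%), 62 miRNA genes (21.2%), 25 transcribed pseudogenes and a few of other kinds. For 407 of them an FPKM could be matched by symbol or older symbol, and their median was 0.0575, against 6.74 for 14767 genes with shared CpGs at the start. For protein-coding genes alone the medians were 0.0706 and 7.66. Of the 407 genes, 352 (86.5%) were under 1 FPKM, against 21.9% of all, and 65 were listed at 0 in every library. Genes are not replicates, so that no test is given, and in bulk RNA fewer cells of a type and less RNA per cell cannot be told apart.

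The 10 methylated starts with the most members were those of protein-coding genes. Pabpc6, of the poly(A)-binding protein family, had 28 members among 29 shared CpGs, and the mean over them was 95.7% at the lowest and 96.8% at the highest in spaceflight and 95.2% and 97.4% in ground control retinas. Sohlh2, a germ cell transcription factor, had 23 of 24, at 95.9 to 98.2% in spaceflight and 95.2 to 97.7% in ground control retinas. Hsf5, a heat shock factor gene, had 22 of 32 at a mean of 90.7%, and Hormad1, of the meiotic chromosome axis, 20 of 28 at 91.5%. Their groups overlapped.

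Mael, which acts in transposon silencing in germ cells, had 19 of 21 members at 94.3%, and Spo11, the enzyme that starts meiotic recombination, 19 of 21 at 93.7%. At Asz1, of the piRNA pathway, and Sycp1, of the synaptonemal complex, all 18 of 18 shared CpGs were members, at means of 96.8% and 96.3%. Pbp2 had 18 of 19 at 95.4% and Zdhhc25, of a family of palmitoyl transferases, 18 of 21 at 95.6%. Their FPKM lay between 0 (Asz1, listed at 0 in all libraries) and 0.245 (Pbp2), where the highest library was at 1.73. The group means lay farthest apart at Spo11, with 93.1% ± 1.23 (SD, n = 8) in retinas of spaceflight mice and 94.2% ± 1.16 (SD, n = 8) in those of ground control mice, and the groups overlapped (90.9 to 94.8% and 92.6 to 95.7%).

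Gene lists showed where such starts were found. Of 28 germline genes, 24 had shared CpGs at the start, and of these 17 had a member, 15 had methylated starts and 7 had members only. The list's median share of members was 75.7%, beside 0% over all genes, and its median expression was 0.0836 FPKM. Beside the genes named above, Tex14 and Brdt, both needed in spermatogenesis, had 6 of 6 CpGs as members at 0.645 and 1.15 FPKM, Slc25a31, an ADP/ATP carrier of germ cells, 16 of 19, and Rpl10l, the autosomal copy of a ribosomal protein gene, 15 of 15. The list was not uniform. Dazl, an RNA-binding protein of germ cells, had 22 members among 47 CpGs and 23 CpGs under 50%. Tdrd1 had 0 members of 20 at a mean of 76.5%, and Ddx4 had 8 of 25 at 84.5%. Starts of Tdrd6, Smc1b, Stag3, Dmc1 and Ddx25 had means under 10% and no members, and of these Ddx25 was expressed at 9.41 FPKM. The other starts without methylation also belonged to genes with little RNA, at 0.268 (Tdrd6), 0.102 (Smc1b), 0.872 (Stag3) and 0.225 FPKM (Dmc1).

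Of 14 pluripotency genes, 11 had shared CpGs and 4 had methylated starts: Zfp42 (5 of 7 CpGs were members), Dppa2 (3 of 3), Dppa4 (5 of 5) and Tcl1 (4 of 4), each at 0.0241 FPKM or less. Sall4 (0.826%), Utf1 (1.70%), Klf4 (0.481%) and Esrrb (0.679%) had none. Of these, Esrrb was at 78.4 and Klf4 at 4.61 FPKM, whereas Sall4 and Utf1 were at 0.0627 and 0.0252 FPKM. Of 14 housekeeping genes 0 had a methylated start and 12 had means under 10%; Gusb had 3 members of 11 CpGs. Of 15 rod genes 7 had shared CpGs and 0 had a methylated start. Nr2e3, a rod transcription factor, had 1 member of 3 CpGs at a mean of 78.2% and was expressed at 227.2 FPKM. Of 16 genes of other lineages only 5 had shared CpGs, and 1 of these, Mpo, had a member.

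**Figure D5:**
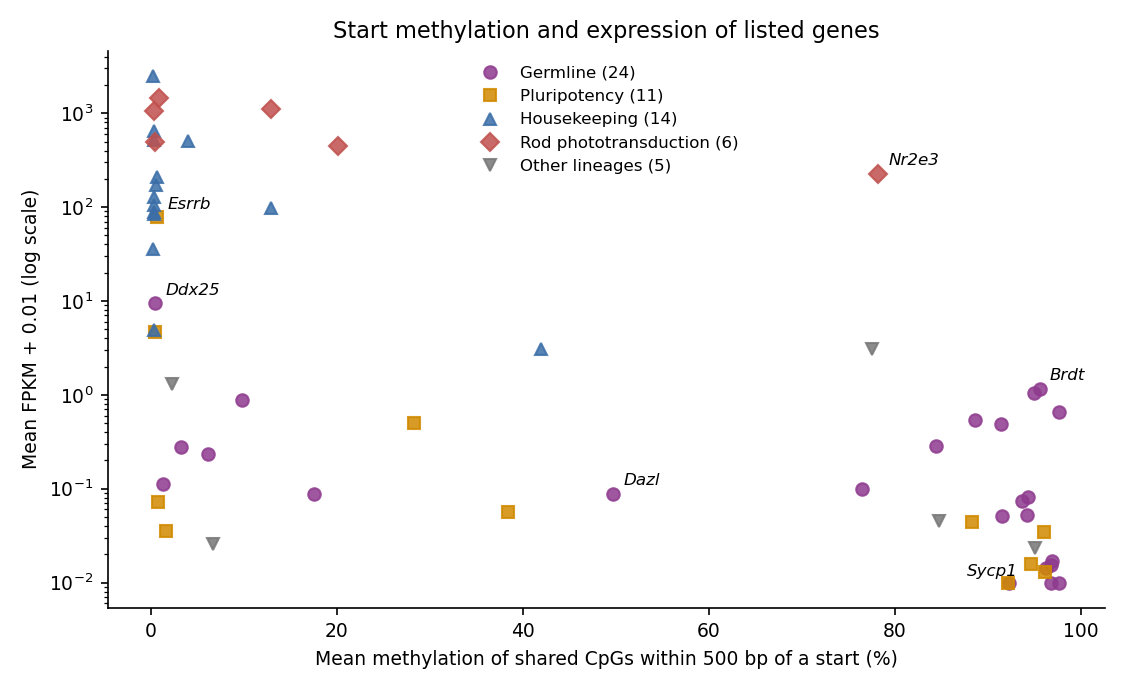
Mean methylation of shared CpGs within 500 bp of a start against mean FPKM + 0.01 over 16 RNA libraries (log scale), 1 point a gene, for the 5 gene lists with the number of genes plotted (1 rod gene is not shown). Germline genes lie at both ends of the methylation axis, with Sycp1 and Brdt at over 95% and Ddx25 under 1%, and 12 of 14 housekeeping genes lie under 10%, with Gusb at 42%.

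In the 300-base RefSeq promoters, CACGTG, which is its own reverse complement, stood in 9 of 14 promoters of germline genes with methylated starts (64.3%), against 7.14% of 31396 autosomal promoters. TCCCGC on either strand stood in 9 of 14 (64.3%), against 20.2% of all. These promoters also held more CpGs (median 20.5 CG pairs against 7). Over all 665 promoters of genes with methylated starts, with a median of 6 CG pairs, the shares were 6.92% and 9.02%. Promoters of all genes with shared CpGs at the start had a median of 18 CG pairs, and 9.01% and 31.7% of them held the motifs. A match is a description of the letters only.

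Some genes with methylated starts were expressed, and these were named after their values were seen. Sparc, a matrix protein gene, had 5 members among 6 CpGs at a mean of 94.4% and was at 88.7 to 376.7 FPKM. Snord23, Ubb-ps and Cox7c-ps1 were at means of 135.2, 130.7 and 109.4 FPKM. The last 2 are pseudogenes whose reads cannot be told apart with certainty from those of their parent genes, and Snord23 is a short RNA that ranged from 0 to 361.2 FPKM. In all, 15 of the 407 genes (3.69%) were at 10 FPKM or more, against 39.3% of all.

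Within gene bodies, members were common at every expression level. In exons and introns outside promoters, 41.8% of shared CpGs of genes under 0.1 FPKM were members, 46.8% at 1 to under 5 FPKM, 51.4% at 5 to under 20 FPKM, 45.9% at 20 to under 100 FPKM and 33.5% at 100 FPKM or more. The genes with the most members were long: the immunoglobulin kappa locus Igk (304 of 373 shared CpGs over 3171119 bp), Wwox (260 of 530), Camta1 (218 of 711), Cdh13 (195 of 421) and Tenm3 (194 of 484). Members in Igk averaged 95.4% in spaceflight and 95.5% in ground control retinas, and those in Wwox 95.4% in both.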

How the data were processed

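Retinal DNA was studied by RRBS (16 libraries) and RNA by RNA-seq (16 libraries used). Per the labels and the study's methods, the authors trimmed RRBS reads with Trim Galore 0.4.5, removed duplicates by random tags, aligned to GRCm38 with Bismark and wrote methylKit tables; the deposited tables give a read count and the percent methylated for each CpG cytosine, strands apart. RNA reads were trimmed with Trimmomatic, aligned with TopHat2 and quantified with Cufflinks by the authors, whose deposited FPKM cover 26630 entries; an entry with no gene name (up to 0.388% of a library) and 2 columns of samples not used here were left out. Fragments behind an FPKM are not given, so its depth is unknown.

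Here strands were summed, and CpGs with 10 reads in all 16 libraries were kept (library medians on members 41 to 71 reads). Whether the deposited read counts were taken after the removal of duplicates was not tested. Methylated reads, recovered from count and percent, were fitted by logistic regression on group with a McCullagh-Nelder factor of at least 1 and an F-test (numpy 2.4.6, scipy 1.17.1), adjusted over all shared CpGs, and limma 3.58.1 was an alternative. The code was tested on simulated data. Positions were annotated with RefSeq models of GRCm38.p6, in which all CpGs read in every library were CG. Named CpGs were the 8 with the smallest unadjusted p among members with 10 points or more, the 10 losses with the most reads, and those nearest the threshold; named genes were the 10 with the most members at the start, the 5 with the most over the gene, and list genes; some of these are not reported here. Members and lists were chosen with earlier results of these data known. P-values measure the spread between mice, 1 library each, except where the factor was held at 1 or left out. There they rest on read counting. Counting intervals cover counting error only.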

Additional observations from a re-analysis of the deposited data

Results flagged for a closer look

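Among 54 groups of 8 libraries or values, 11 had an end value farther from its neighbour than Dixon's 95% limit. Chance alone flags about 1 in 20 groups, and the groups share libraries. In M31 the share of members under 80% was 1.72% (next ground control library 0.560%), the spread relative to read counting was 1.74 (next 1.31), and there were 15 losses at 50% or under (next 1) and 581 at 70% or under (next 83). In M23 the share under 80% was 1.14% (next spaceflight library 0.634%), with 12 losses at 50% or under (next 0) and 424 at 70% or under (next 110). The pooled level over members was 95% in M22 (next 95.3%). At single CpGs, M37 was at 91.4% at Zfp69 among ground control retinas (next 96.4%), M32 at 87.5% at Bpnt1 among ground control retinas (next 94.4%), and M26 at 60.9% at Col27a1 among spaceflight retinas (next 82.8%).

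Outside the autosomes, 8574 CpGs of chromosome X and 73 of 129 shared CpGs mapped to chromosome Y had means of 90% or more. All mice were female, and the source of the reads mapped to chromosome Y was not tested.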

How the results depend on the processing

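With a mean of 95% or more as the rule there were 150542 CpGs, and leaving out 1 library gave 255170 to 275182. The difference between group means over members stayed under the spread between libraries, at -0.0528 to 0.0521 points when 1 library was left out. The count of members with an unadjusted p of 0.05 or under and 10 points or more, 12 as reported, was 12 to 24 when 1 library was left out, 13 without the overdispersion factor and 0 with 20 reads in every library. With an adjusted p it was 3 without the overdispersion factor, where the Zfp69 member reached an adjusted p of 0.0106, and 0 whenever 1 library was left out. The fit without the factor holds no spread between mice. The excess of members lower over higher in spaceflight ran from -157 (without M22, reversed) to 872 (without M31). Losses in 1 library numbered 1 with 20 reads in every library, 1 at 30% or under, 1621 at 70% or under and 13 to 29 when 1 library was left out. Members numbered 7384 in promoters of 500 bp and 4042 in stricter islands. The cause of these changes was not tested. Fits without M23 and M31 together, and the single-library fits for the adjusted count, the excess and the losses, were chosen after seeing the data. No paired analysis was possible because the labels number the mice and give no number that spaceflight and ground control mice share. Depth limits single CpGs, since with 10 to 19 reads 1 read moves a value by several points.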
